A study of Mus musculus with 7 samples.

Results

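The genes described here are the nuclear genes of oxidative phosphorylation, chosen by name: protein-coding mouse genes whose symbol begins with Nduf, Uqcr, Cox4 to Cox8 or Atp5, together with Sdha, Sdhb, Sdhc, Sdhd, Cyc1, Cycs and Nnt. The rule found 96 of the 53379 gene rows of the count table, and 90 of them passed the filter on low counts that left 12161 genes for testing. By role they comprise 36 subunits of complex I, 8 assembly factors of complex I, 4 subunits of complex II, 9 of complex III, 20 of complex IV, 17 of complex V, cytochrome c and the transhydrogenase Nnt. Ndufa4 and its relative Ndufa4l2 were placed with complex IV, to which the NDUFA4 protein belongs.

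Hhex is a homeodomain transcription factor, and the study compared natural killer (NK) cells labelled Hhex KO with Cre control cells. RNA was sequenced from splenic NK cells of C57BL/6 mice, sorted directly from the tissue as C45+CD3-Nk1.1+NKp46+CD49b+ cells, in 4 Hhex KO libraries and 3 Cre control libraries. The labels call both sets biological replicates and name no other treatment. They do not give the promoter that drives Cre, whether the Hhex KO mice carry the same Cre, the C57BL/6 substrain, or the age of the animals. The p-values therefore measure the spread between these libraries.

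Oxidative phosphorylation couples the oxidation of NADH and succinate to ATP synthesis across the inner mitochondrial membrane. Complexes I and II pass electrons to ubiquinone, complex III passes them on to cytochrome c and complex IV to oxygen, and complex V uses the proton gradient that this builds to make ATP. Nnt uses the same gradient to transfer hydride from NADH to NADP+, which feeds the mitochondrial antioxidant systems. Resting NK cells depend on oxidative phosphorylation for energy, and activated or proliferating NK cells raise both glycolysis and respiration.

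Total counts ranged from 10589915 to 18456404 per library. The targeted gene, Hhex, was measured at 96.1, 95.6 and 93.5 CPM (counts scaled to library size with TMM factors) in Cre control libraries 1 to 3 and at 58.0, 56.5, 54.2 and 64.8 CPM in Hhex KO libraries 1 to 4. Each Hhex KO library was below every Cre control library, and Hhex fell by 0.70 ± 0.10 on the log2 scale (SE; edgeR adjusted p = 0.00768), which left 0.614 of the Cre control level. A count per gene does not show which part of the transcript was deleted or whether some cells kept the gene, so this value shows the direction of the labels but not that Hhex was lost. The NK genes Ncr1 and Eomes were at 791 CPM or more and at 711 CPM or more in every library. A list of 10 NK genes summed to 22166, 20372 and 17795 CPM in Cre control libraries 1 to 3. In Hhex KO libraries 1 to 4 the sums were 14011, 18986, 18493 and 16704 CPM, with libraries 1 and 4 below every control. Of the 10 genes, 8 had negative log2 fold changes, and the median was -0.13. edgeR called 0 of them, against 4.56% of all genes, and 2 had an unadjusted p below 0.05, against 18.5%. The 4 Hhex KO libraries fell into unlike pairs: chi-square over degrees of freedom, taken over the counts of all genes, was 11.2 between libraries 2 and 3 and 28.3 between 1 and 4, but 69.2 to 78.5 across these pairs, against 15.7 to 17.5 among the Cre control libraries.

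Hhex KO and Cre control NK cells differed in 2 genes of oxidative phosphorylation, Nnt and Cox6a2, both higher in Hhex KO, and no other member passed the test. These 2 of 90 tested members were called higher by edgeR's quasi-likelihood test at a Benjamini-Hochberg adjusted p below 0.05, against 2.68% of all 12161 genes. No member was called lower, against 1.87% of all genes, and 88 members were not called. At an unadjusted p below 0.05 the same 2 members, both higher, were the only ones, against 18.5% of all genes in either direction. DESeq2 and limma-voom also called 0 members lower (against 3.86% and 2.06% of all genes). With sample quality weights limma-voom called 8 members higher, against 12.6% of all genes, and 2 lower, Atp5l and Atp5s, against 10.9%; with a stricter filter, which removed Cox6a2, edgeR called 1 higher, against 2.16%. Nnt and Cox6a2 were also the 2 members whose Hhex KO libraries did not overlap the Cre control libraries, and both were higher; over all genes, 9.37% did not overlap with the Hhex KO libraries higher and 9.98% with them lower.

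The count of calls depended on which Hhex KO libraries were used. With Hhex KO libraries 1 and 4 left out, edgeR called 24 members higher, against 14.0% of all genes, and 2 lower, against 14.3%. With libraries 2 and 3 left out it called Nnt and Cox6a2 higher, against 4.49% of all genes, and 0 lower, against 2.71%; the median log2 fold change of the tested members was 0.25 in the first case and -0.08 in the second. Hhex KO library 4 carries sample number 95 in the labels, against 26 to 28 for the other Hhex KO libraries and 20 to 22 for Cre control, and whether it was processed apart is not stated; library 1, its nearer partner in the counts, has number 26. The pairs are not groups of the study: they were seen in the measured values, so the counts describe these libraries and are no test of a difference between the pairs. Nnt and Cox6a2 were called with either pair, at log2 fold changes of 1.52 and 1.96 without libraries 1 and 4 and of 0.99 and 1.30 without libraries 2 and 3.

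For the other 88 members the data bounded the difference. Their log2 fold changes ran from -0.63 for Atp5l to 0.80 for Cox6b2, with a median of 0.09, against a median of 0.02 over all genes tested. Of the 90 tested members, 66 had a 95% confidence interval that lay within a 1.5-fold change in either direction, and 84 one within a 2-fold change. The corresponding shares over all genes were 44.7% and 72.1%. Members and all genes were not matched for expression level, on which the width of an interval depends. The 6 members whose intervals reached past 2-fold were Nnt, Cox6a2, Cox6b2, Ndufaf6, Atp5l and Atp5s. These intervals are not adjusted for the number of genes.

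**Figure D1:**
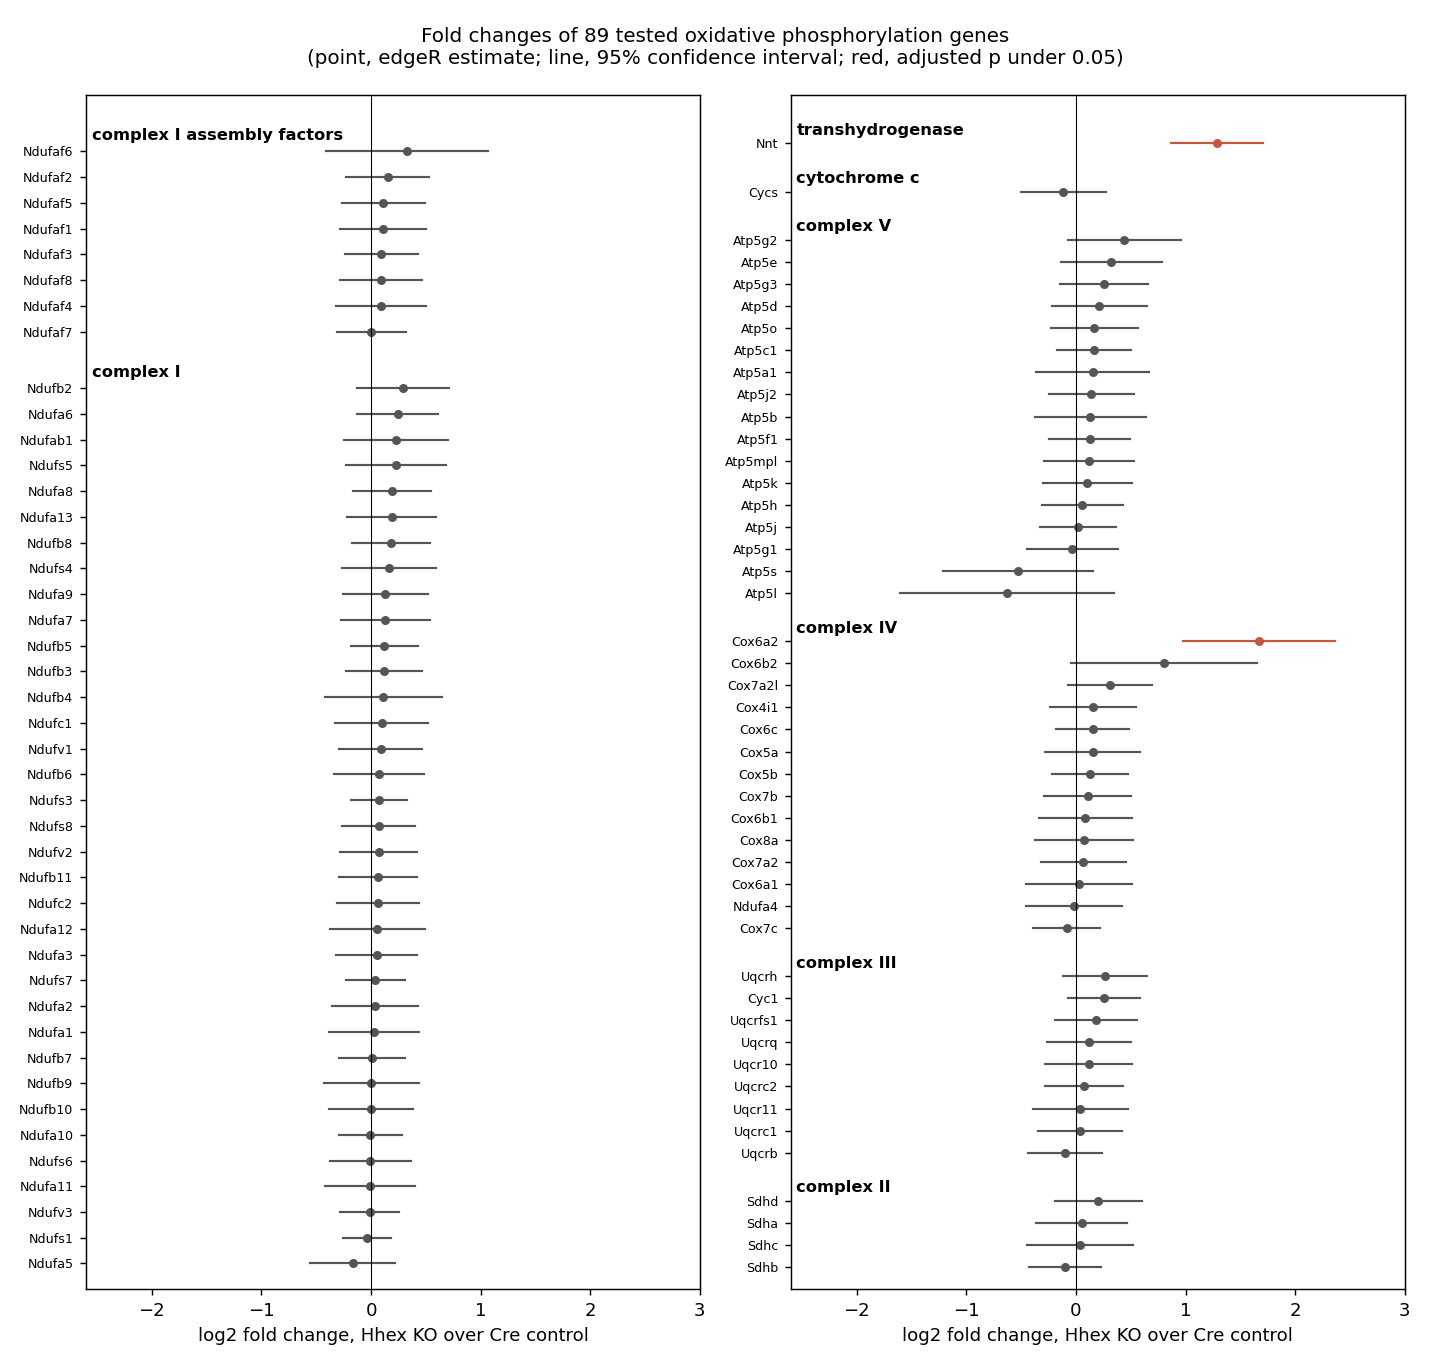
Log2 fold change (x axis, Hhex KO over Cre control) of 89 of the 90 tested genes, grouped by complex; points are edgeR estimates, lines are 95% confidence intervals and red marks an adjusted p below 0.05. Nnt at 1.29 and Cox6a2 at 1.67 stand to the right of 0, and the intervals of the other 87 genes shown all include 0.

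Nnt, the proton-translocating transhydrogenase of the inner membrane (ENSMUSG00000025453.17, mm10 chromosome 13, 119335448 to 119408997), was measured at 29.4, 28.5 and 29.3 CPM in Cre control libraries 1 to 3. In Hhex KO libraries 1 to 4 it was at 63.4, 83.3, 85.5 and 51.7 CPM. The Cre control libraries lay almost on one value, the Hhex KO libraries were spread, and the lowest of them, library 4, was still well above every control. The means were 29.1 ± 0.491 (SD, n = 3) and 71.0 ± 16.2 CPM (SD, n = 4), from at least 324 reads in each library. The difference was 2.44-fold, a log2 fold change of 1.29 ± 0.18 (SE) with a 95% interval of 0.87 to 1.71 (edgeR adjusted p = 0.0071), and Nnt stood at rank 118 of 12161 genes by p. Leaving out any 1 library kept Nnt above the threshold, with log2 fold changes from 1.19 to 1.41 and adjusted p-values from 0.00156 to 0.0489.

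None of the genes around Nnt passed the test. Within 1 Mb on either side, 8 other genes were tested and edgeR called 0, against 4.56% of all genes in either direction. Of the 8, Fgf10 and Tmem267 had an unadjusted p below 0.05, against 18.5% of all genes. Their log2 fold changes were 1.23 and 0.67 (edgeR adjusted p = 0.238 and 0.153). For Tmem267 every Hhex KO library was above every Cre control library (3.90 to 5.44 against 2.40 to 3.24 CPM). The gene nearest to Nnt, Paip1, was at 0.04 ± 0.10 and Hmgcs1, which encodes a cholesterol synthesis enzyme, at 0.13 ± 0.14. Besides Nnt, 7 members lie on chromosome 13: Ndufs4, Ndufs6, Ndufaf2, Sdha, Uqcrb, Uqcrfs1 and Cox7c. Their log2 fold changes ran from -0.10 to 0.18 and none was called. The C57BL/6J substrain is known to carry a deletion inside Nnt, which other C57BL/6 substrains lack; the labels give no substrain, a count per gene does not show which exons the reads come from, and substrain and genotype cannot be told apart here.

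Cox6a2 encodes the form of cytochrome c oxidase subunit VIa that is known from heart and skeletal muscle, and Cox6a1 the form found in most tissues. Both are printed here because a rise of the rarer form could be read wrongly if reads of the common form were assigned to it. The lines below give the last 240 bases of each coding sequence in GENCODE M21 on GRCm38 (mm10), 5′ to 3′ and up to the stop codon, from Cox6a1 at chromosome 5, 115345642 to 115348981, and from Cox6a2 at chromosome 7, 128205435 to 128206387, both on the minus strand. Capitals mark bases that differ, or have no partner, in the alignment of the 2 sequences.
Cox6a1: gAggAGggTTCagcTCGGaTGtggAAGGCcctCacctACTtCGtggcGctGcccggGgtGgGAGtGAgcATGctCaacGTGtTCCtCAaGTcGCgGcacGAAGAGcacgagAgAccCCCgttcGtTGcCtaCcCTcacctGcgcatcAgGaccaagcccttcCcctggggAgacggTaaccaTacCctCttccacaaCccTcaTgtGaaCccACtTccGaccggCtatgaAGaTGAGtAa
Cox6a2: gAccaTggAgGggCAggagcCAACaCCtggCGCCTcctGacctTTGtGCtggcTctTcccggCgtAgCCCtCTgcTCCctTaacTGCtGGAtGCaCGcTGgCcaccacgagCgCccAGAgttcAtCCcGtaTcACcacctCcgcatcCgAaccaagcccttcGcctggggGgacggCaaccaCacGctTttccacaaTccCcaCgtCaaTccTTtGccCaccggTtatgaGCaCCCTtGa
The whole coding sequences are 339 and 294 bases long. Over them, of 294 aligned bases 190 were identical (64.6%), and the longest identical run was 12 bases, against reads of 75 bases. Over the whole transcripts, no stretch of 75 bases of Cox6a2 occurred in a transcript of another gene.

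Cox6a2 (ENSMUSG00000030785.8) was measured at 1.95, 3.52 and 2.76 CPM in Cre control libraries 1 to 3 and at 7.25, 9.39, 12.1 and 6.11 CPM in Hhex KO libraries 1 to 4. Every Hhex KO library was above every Cre control library, and libraries 2 and 3 were the highest, as they were for Nnt. The means were 2.74 ± 0.786 (SD, n = 3) and 8.71 ± 2.63 CPM (SD, n = 4), a 3.19-fold difference (log2 fold change 1.67 ± 0.31 SE, 95% interval 0.98 to 2.37, edgeR adjusted p = 0.0198). The gene is weakly expressed, with 26 to 51 reads in the Cre control libraries and 69 to 205 in the Hhex KO libraries. The call was lost without Cre control library 1 (log2 fold change 1.48, adjusted p = 0.0925) and without Cre control library 3 (1.68, adjusted p = 0.100).

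The common form, Cox6a1, was at 157, 164 and 128 CPM in Cre control libraries 1 to 3 and at 112, 194, 184 and 121 CPM in Hhex KO libraries 1 to 4. The groups overlapped, with Hhex KO libraries 1 and 4 below every control and 2 and 3 above them, and the log2 fold change was 0.03 ± 0.21 (95% interval -0.46 to 0.52). Per kilobase of transcript (RPKM), Cox6a2 made up 1.03%, 1.77% and 1.78% of the sum of both forms in Cre control libraries 1 to 3. It made up 5.16%, 3.92%, 5.22% and 4.08% in Hhex KO libraries 1 to 4. Cox6a1 thus remained the main form in each library, and the share of Cox6a2 was higher in each Hhex KO library than in any control (1.53 ± 0.428% against 4.59 ± 0.691%, SD).

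**Figure D2:**
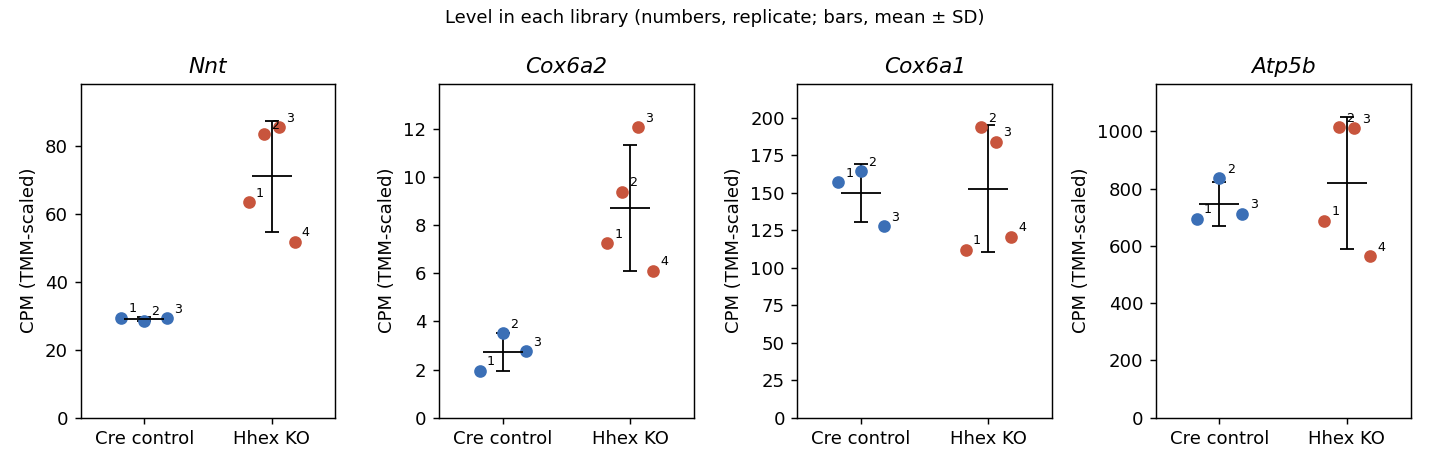
CPM (y axis, from 0) of Nnt, Cox6a2, Cox6a1 and Atp5b in each library, with Cre control in blue and Hhex KO in red; numbers name the replicate and bars give the mean ± SD. The groups are apart for Nnt (28.5 to 29.4 against 51.7 to 85.5) and Cox6a2 (1.95 to 3.52 against 6.11 to 12.1), and overlap for Cox6a1 and Atp5b.

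Cox6a2 lies inside the span of Itgad, an integrin gene on the opposite strand (chromosome 7, 128154376 to 128223816). Of the exonic bases of Cox6a2, 10.3% overlap exons on the opposite strand, counted over all genes there. Other members had larger shares, among them Ndufaf2 with 65.6% and Ndufb6 with 39.0%. The library kit marks strand, but how the counting treated strand was not stated. A part of the reads of Cox6a2 or of a gene opposite to it may have been counted for the other. Itgad itself was at 29.2 CPM in Cre control and 32.8 CPM in Hhex KO (log2 fold change 0.17, adjusted p = 0.683). Within 1 Mb of Cox6a2 53 other genes were tested and 2 were called, against 4.56% of all genes in either direction: Armc5 (0.60, adjusted p = 0.0385) and Rgs10 (1.45, adjusted p = 0.0383), both higher. Cox6a2 is also known from plasmacytoid dendritic cells, and a list of 6 of their genes, added after the value of Cox6a2 was seen, summed to between 54.6 and 61.8 CPM in Cre control and between 43.7 and 59.8 CPM in Hhex KO. Of these, 3 were tested and 0 called, with a median log2 fold change of 0.80 (range -0.21 to 1.58); the sum is mostly Tcf4, at -0.21, and Pacsin1 and Ly6d were at 0.80 and 1.58. Their defining gene Siglech was at 0.67, 0.18 and 0.22 CPM in Cre control libraries 1 to 3 and at 0.71, 2.12, 0.53 and 0 CPM in Hhex KO libraries 1 to 4. In bulk RNA, more cells of one kind and more RNA per cell cannot be told apart.

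Complex I, the NADH dehydrogenase, carried the largest number of members, and none of its 36 subunits was called. Their median log2 fold change was 0.07, with a range from -0.17 for Ndufa5 to 0.29 for Ndufb2. The 7 nuclear core subunits, which hold the flavin and the iron-sulfur clusters, all had 95% intervals within a 1.5-fold change. Ndufs1, the largest of them, was at 92.1, 101 and 99.8 CPM in Cre control libraries 1 to 3 and at 95.3, 98.6, 95.5 and 90.4 CPM in Hhex KO libraries 1 to 4. These libraries overlapped closely, at a log2 fold change of -0.04 ± 0.10 (95% interval -0.26 to 0.18).

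The 29 accessory subunits, which surround and stabilise the core, had a median of 0.07. The accessory subunits with the smallest p were Ndufa6 at 0.24 ± 0.16 (adjusted p = 0.493) and Ndufb2 at 0.29 ± 0.19 (adjusted p = 0.466). Ndufa3 had the highest level per kilobase in complex I, 164 RPKM in Cre control, and a log2 fold change of 0.05 ± 0.16. The 8 Ndufaf genes, whose products assemble complex I and leave it again, all had positive estimates, with a median of 0.10 and 0 calls. The highest estimate was that of Ndufaf6, 0.33 ± 0.33, at only 2.41 CPM in Cre control. Ndufaf2, Ndufaf5 and Ndufaf8 lay between 0.09 and 0.15. Of the exonic bases of Ndufaf2, 65.6% overlap exons on the opposite strand, and how the counting treated strand was not stated.

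Complex II, succinate dehydrogenase, is also an enzyme of the tricarboxylic acid (TCA) cycle and is encoded in the nucleus alone. None of its 4 subunits was called. The flavoprotein Sdha was at 261, 325 and 299 CPM in Cre control libraries 1 to 3 and at 266, 366, 359 and 233 CPM in Hhex KO libraries 1 to 4. The Hhex KO libraries lay on both sides of the controls, and the log2 fold change was 0.05 ± 0.18. The iron-sulfur subunit Sdhb was at -0.10 ± 0.14, and the membrane anchors Sdhc and Sdhd were at 0.04 ± 0.21 and 0.20 ± 0.18.

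Complex III, the ubiquinol-cytochrome c reductase, had 9 members, 0 calls and a median log2 fold change of 0.12, with a range from -0.10 for Uqcrb to 0.26. Cyc1, which carries the cytochrome c1 haem, was at 82.0, 82.0 and 73.9 CPM in Cre control libraries 1 to 3 and at 77.4, 108, 108 and 85.8 CPM in Hhex KO libraries 1 to 4. Hhex KO libraries 2, 3 and 4 were above every control and library 1 was among them, at 0.26 ± 0.14 (adjusted p = 0.394). The hinge protein gene Uqcrh was at 0.26 ± 0.17 (adjusted p = 0.472) and the Rieske iron-sulfur subunit Uqcrfs1 at 0.18 ± 0.17 (adjusted p = 0.642). The core proteins Uqcrc1 and Uqcrc2 were at 0.04 and 0.07. Cycs, the soluble cytochrome c that links complexes III and IV and starts the apoptosome once it is released, was at 23.2, 21.5 and 19.2 CPM in Cre control libraries 1 to 3. In Hhex KO libraries 1 to 4 it was at 15.5, 22.7, 22.8 and 17.5 CPM. The groups overlapped for Cycs, with libraries 1 and 4 lowest, at -0.11 ± 0.17 (95% interval -0.50 to 0.27, edgeR adjusted p = 0.812). Of the 75-base stretches of Cycs 26.1% also occurred in other genes' transcripts, and of those of Uqcrb 29.1%.

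Complex IV, cytochrome c oxidase, is the complex with the most tissue-specific forms, and the NK cells expressed mainly the common ones. Of its 20 members 14 were tested, with a median log2 fold change of 0.12, and Cox6a2 was the only call. Of the 6 not tested, Cox7b2, Cox8b, Cox8c and Ndufa4l2 had 0 reads in all 7 libraries, and Cox4i2 had 2 reads, both in Cre control library 3. Cox7a1, the heart and muscle partner of Cox7a2, had 0 to 6 reads in the Cre control libraries and 3 to 10 in the Hhex KO libraries. A count of 0 leaves room for up to 3 reads in a library.

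Cox4i1, the common form of subunit IV, had the highest level per kilobase of all members, 500 RPKM in Cre control and 556 in Hhex KO. It was at 407, 412 and 328 CPM in Cre control libraries 1 to 3 and at 324, 488, 487 and 401 CPM in Hhex KO libraries 1 to 4. The lowest and the highest of these were both Hhex KO libraries, and the log2 fold change was 0.15 ± 0.17. Cox6b2, known as the testis form of subunit VIb, was near the filter limit, at 0.899, 1.58 and 1.03 CPM in Cre control libraries 1 to 3 and at 1.42, 1.55, 2.36 and 2.83 CPM in Hhex KO libraries 1 to 4. Its groups overlapped, at 0.80 ± 0.37 (95% interval -0.04 to 1.65, adjusted p = 0.301), while its common partner Cox6b1 was at 0.09 ± 0.19. Cox7a2l, described as a factor that joins complexes III and IV into supercomplexes, was at 0.31 ± 0.17 (adjusted p = 0.386). Whether its protein does so in these mice was not measured, and 13.4% of its 75-base stretches also occurred in other genes' transcripts.

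Complex V, the ATP synthase, had 17 members, 0 calls and log2 fold changes from -0.63 to 0.44 around a median of 0.13. Atp5b, the catalytic beta subunit, was at 695, 836 and 713 CPM in Cre control libraries 1 to 3 and at 689, 1015, 1012 and 564 CPM in Hhex KO libraries 1 to 4. Hhex KO libraries 2 and 3 were above every control and 1 and 4 below, and the log2 fold change was 0.13 ± 0.22. The 5 subunits of the F1 head (Atp5a1, Atp5b, Atp5c1, Atp5d and Atp5e) lay between 0.13 and 0.32.

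Atp5e, the small epsilon subunit, was second to Cox4i1 in level per kilobase, at 395 RPKM in Cre control and 494 in Hhex KO. It was at 178, 182 and 139 CPM in Cre control libraries 1 to 3 and at 138, 228, 241 and 225 CPM in Hhex KO libraries 1 to 4. Hhex KO library 1 stood far below the other 3, which were above every control, and the difference was not called (0.32 ± 0.20, adjusted p = 0.453). Atp5g1, Atp5g2 and Atp5g3 encode one identical mature protein, the c subunit of the membrane rotor. Atp5g2 had the highest estimate in complex V, 0.44 ± 0.23 (adjusted p = 0.349), and 35.8% of its 75-base stretches also occurred in other genes' transcripts.

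The 2 lowest estimates of all members were in complex V. Atp5s, a factor of the coupling between F1 and the membrane part, was at 5.10, 3.61 and 4.97 CPM in Cre control libraries 1 to 3 and at 3.04, 2.06, 2.89 and 4.78 CPM in Hhex KO libraries 1 to 4. Libraries 1, 2 and 3 of Hhex KO were below every control and library 4 was not, at -0.53 ± 0.30 (adjusted p = 0.411). Atp5l, subunit g of the membrane part, was at 8.09, 5.98 and 6.97 CPM in Cre control libraries 1 to 3 and at 6.28, 2.69, 2.00 and 7.35 CPM in Hhex KO libraries 1 to 4. Only libraries 2 and 3 of Hhex KO were below the controls (-0.63 ± 0.43, adjusted p = 0.506). Atp5l shared 63.4% of its 75-base stretches with transcripts of other genes, the largest share of any member, so its count is uncertain. Of the 96 members, 66 shared none, Nnt among them, and 14 shared at least 10%.

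The summed level of the members varied more within Hhex KO than it differed between the groups. Their summed level was 8998, 9458 and 7887 CPM in Cre control libraries 1 to 3 and 7557, 10953, 11112 and 8593 CPM in Hhex KO libraries 1 to 4. The lowest and the highest sums were both Hhex KO libraries, and the means, 8781 ± 807 and 9554 ± 1760 CPM (SD), differed by less than the spread within Hhex KO. Hhex KO library 1 was the lowest of the 7 libraries for 59 of the 90 tested members (65.6%, against 15.5% of all genes tested). Library 3 was the highest for 41 (45.6%, against 20.9%) and library 2 for 23 (25.6%, against 14.0%).

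**Figure D3:**
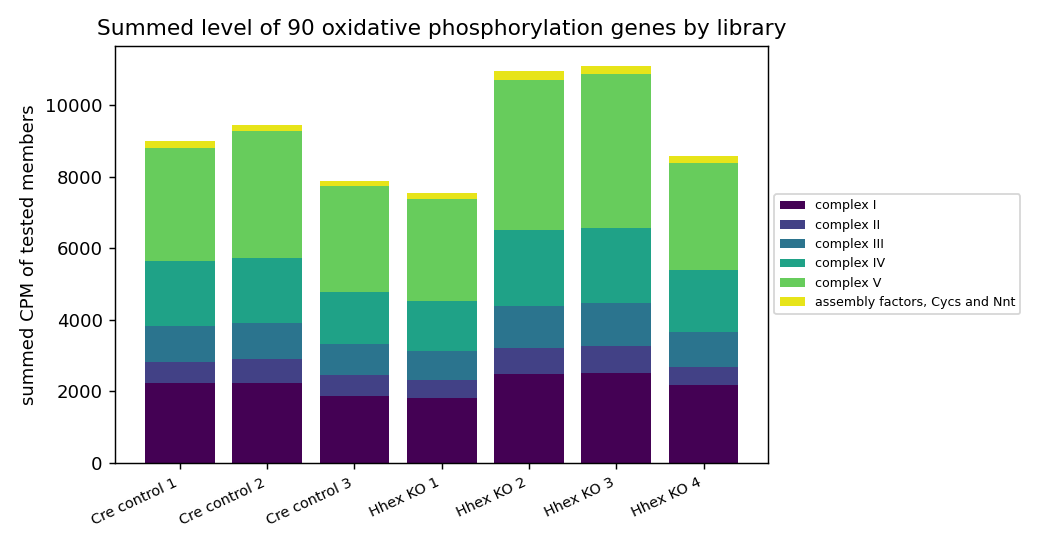
Summed CPM (y axis) of the 90 tested genes in each library, divided by complex; each bar is 1 library. Hhex KO libraries 2 and 3 reach 10953 and 11112 CPM, above the Cre control libraries at 7887 to 9458, while Hhex KO libraries 1 and 4 stand at 7557 and 8593.

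The complexes did not all follow the same order. In Hhex KO library 4 the sum was below every Cre control library for complex II (515 CPM against 587 to 662) but within their range for complex I (2173 against 1879 to 2237) and complex IV (1736 against 1455 to 1833). In Hhex KO library 1 the sums of complexes I, II, III, IV and V were all below every Cre control library. Other RNA moved with these libraries. Nuclear-retained RNAs (Malat1, Neat1, Kcnq1ot1, Mir142hg and Meg3, of which Meg3 was at 0) summed to 834, 325 and 510 CPM in Cre control libraries 1 to 3 and to 1148, 208, 188 and 1086 CPM in Hhex KO libraries 1 to 4, lowest where the members were highest. For cytosolic ribosomal protein genes the median log2 ratio to the Cre control mean was -0.06, 0.58, 0.62 and 0.32 in Hhex KO libraries 1 to 4, and for 88 members it was -0.24, 0.24, 0.27 and 0.07.

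**Figure D4:**
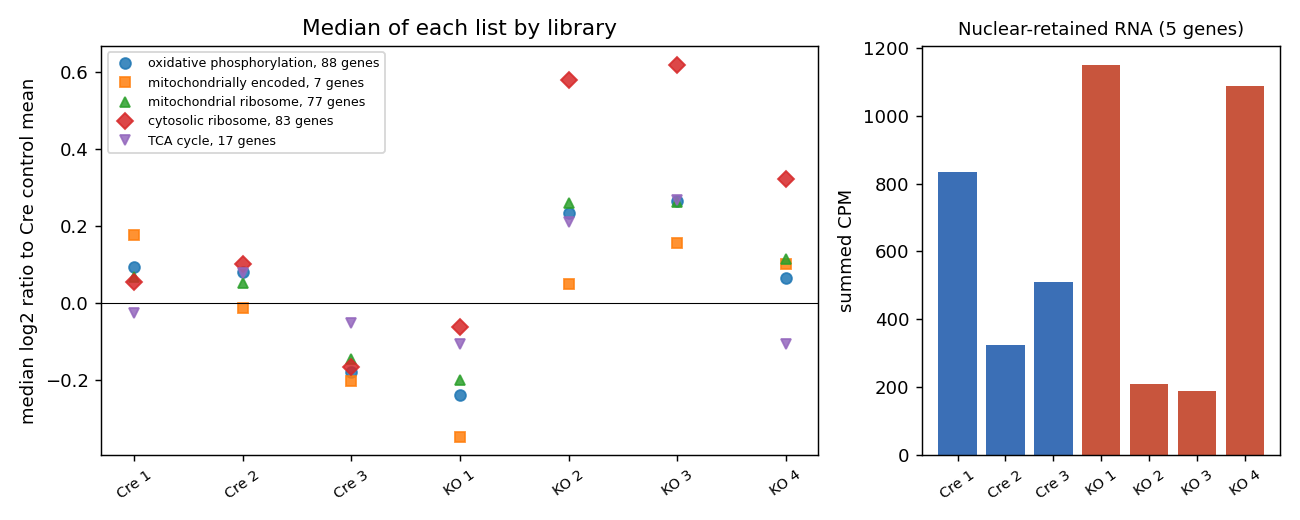
Left, median log2 ratio to the Cre control mean (y axis) in each library for 5 gene lists, and right, summed CPM of 5 nuclear-retained RNAs. The oxidative phosphorylation genes, without Nnt and Cox6a2, lie at 0.24 and 0.27 in Hhex KO libraries 2 and 3 and at -0.24 in library 1, and the nuclear-retained RNAs are at 208 and 188 CPM in libraries 2 and 3 against 1148 and 1086 CPM in 1 and 4.

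Markers of other cells also differed between libraries. Proliferation genes (12 of 12 tested, 4 called higher) had sums between 312 and 482 CPM in Cre control and between 494 and 1059 CPM in Hhex KO. The sums for B cell genes were 211 to 256 and 240 to 404 CPM, for T cell genes 41.8 to 70.7 and 63.5 to 128 CPM, and for myeloid genes 53.0 to 143 and 22.6 to 498 CPM, the last value from Hhex KO library 2. Those for erythroid genes were 4.32 to 25.1 and 1.95 to 47.3 CPM, and for platelet genes 37.4 to 54.0 and 16.7 to 32.4 CPM. Of the defining markers, Pax5 of B cells was at 0.088 to 0.525 CPM in Cre control, at 4.92 CPM in Hhex KO library 1, at 0.229 CPM in library 2 and at 0 in libraries 3 and 4. Cd8a of T cells was at 0 to 0.225 CPM in Cre control and at 0 to 0.458 CPM in Hhex KO, with 0 in Cre control libraries 2 and 3 and Hhex KO library 4, and Cd3e was at 8.75 to 13.6 and 10.6 to 25.7 CPM. The 5 tested T cell genes (of 8) had log2 fold changes from 0.72 to 1.04 with a median of 0.87; 0 were called, and 4 had an unadjusted p below 0.05. In the B cell list (3 of 7 tested) Cd79b was called higher and in the platelet list (5 of 5 tested) Gp1bb was called lower. In the myeloid and erythroid lists 0 were called. All 5 platelet genes had negative log2 fold changes (median -1.33, range -1.64 to -0.77) and an unadjusted p below 0.05. The 3 tested B cell genes had positive ones (median 1.90), and 2 had an unadjusted p below 0.05. All 12 proliferation genes had positive log2 fold changes (median 1.70, range 0.38 to 2.58). Of these, 10 had an unadjusted p below 0.05, and for 7 the groups did not overlap, with Hhex KO higher. For all genes the shares called were 2.68% higher and 1.87% lower. An unadjusted p below 0.05 was found for 18.5% of them, and groups apart with Hhex KO higher for 9.37%. The part of nuclear RNA, of proliferating cells and of these other cells in the levels of the members was not tested.

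The mitochondrial genome encodes the other subunits of complexes I, III, IV and V, and none of those measured was called. Of its 13 protein genes 7 were tested and 0 were called, against 4.56% of all genes in either direction. The 7 had a median log2 fold change of -0.01 and a range from -0.36 to 0.19. Their summed level was 15057, 13502 and 11781 CPM in Cre control libraries 1 to 3 and 10976, 14970, 15866 and 14618 CPM in Hhex KO libraries 1 to 4, with overlapping groups and Hhex KO library 1 lowest again. The catalytic oxidase subunit mt-Co1 was at 0.19 ± 0.19 and cytochrome b, mt-Cytb, at 0.10 ± 0.17, although 39.8% of the 75-base stretches of mt-Co1 occurred in other genes' transcripts too. The table lists mt-Co2, mt-Co3, mt-Atp6, mt-Atp8 and mt-Nd4l at 0 reads in all 7 libraries, and mt-Nd3 at 0.18 CPM or less. For 5 of these 6, at least 97.8% of the 75-base stretches also occurred in transcripts of other genes, but for mt-Atp8 the share was 0%. These genes were not measured in this table, so nothing can be said of their levels.

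Lists of related mitochondrial genes gave few calls. Over all genes tested, edgeR called 2.68% higher and 1.87% lower, and 18.5% had an unadjusted p below 0.05. Of 44 tested assembly factors outside the naming rule 0 were called, with a median of 0.06, and 4 had an unadjusted p below 0.05. Of 17 TCA cycle enzymes 0 were called, with a median of 0.05, a range from -0.03 to 0.28 and none with an unadjusted p below 0.05. Of 77 genes of the mitochondrial ribosome 0 were called, with a median of 0.13 and 2 with an unadjusted p below 0.05. Of 22 regulators of mitochondrial gene expression 0 were called, with a median of 0.03 and 2 with an unadjusted p below 0.05. Their estimates ran from -0.75 to 0.44, with 14 positive and 8 negative. Among these regulators, the mitochondrial DNA packaging factor Tfam was at 0.01 ± 0.12. Nrf1, which activates many nuclear genes of respiration, was at -0.22 ± 0.11 (edgeR adjusted p = 0.311). Its coactivator Ppargc1a, at 2.29 CPM in Cre control, had the lowest estimate of the 22, -0.75 ± 0.36 (edgeR adjusted p = 0.314). Nrf1 and Ppargc1a were chosen after their values were seen, and neither was among the 2 with an unadjusted p below 0.05.

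Of 20 tested genes for ubiquinone synthesis and other entry of electrons, 2 were called higher, Coq2 and Coq3 (against 2.68% of all genes), and 0 lower (against 1.87%), with a median of 0.07. Coq2, which joins the isoprenoid tail to the ring of ubiquinone, was at 19.2, 17.2 and 15.5 CPM in Cre control libraries 1 to 3 and at 28.2, 24.6, 25.2 and 29.0 CPM in Hhex KO libraries 1 to 4. Coq3, a methyltransferase of the same pathway, was at 4.12, 3.70 and 3.35 CPM and at 6.74, 6.19, 7.30 and 7.00 CPM. For both genes every Hhex KO library was above every Cre control library, and library 1 was not the lowest of the Hhex KO libraries. The log2 fold changes were 0.63 ± 0.13 (edgeR adjusted p = 0.0319) and 0.87 ± 0.18 (adjusted p = 0.0326). Both calls were lost on leaving out any 1 library other than Hhex KO library 4, with adjusted p-values from 0.0517 to 0.158 for Coq2 and from 0.0573 to 0.158 for Coq3.

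The promoters of the members were compared for short motifs, since many respiratory genes are known targets of NRF1 and of the ETS factor GABP. RefSeq promoter entries on GRCm38.p6 were found for 75 of the 96 members, with 80 windows, and the 250 bases before each start site were searched on both strands. The NRF1 core GCGCATGC was in 10 windows (12.5%, against 2.26% of all 32851 windows) and the ETS motif CCGGAAG in 14 (17.5%, against 6.91%). The windows of Cox6a1 and Atp5l held both. Nnt and Cox6a2 had no entry and were not searched. CAATTAA, one spelling of the site bound by HHEX, was in 1 window, that of Atp5b (1.25%, against 2.31%), and the YY1 motif AAGATGGC was in 1, that of Atp5j (1.25%, against 1.56%). Base composition was not matched between the members' windows and the others.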

How the data were processed

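RNA from sorted NK cells was sequenced as single-end reads of 75 bases after directional library preparation, per the labels' protocols. STAR, featureCounts and mm10 are named per the submitters' processing notes; for versions, strand setting and annotation release the sources used here give nothing. The authors deposited raw read counts per gene for 7 libraries. Gene names and coordinates were taken from GENCODE M21 on GRCm38, which matched 99.8% of the identifiers without their version.

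The counts were tested as deposited with edgeR 4.0.16 in R 4.3.3: genes kept by edgeR's expression filter (minimum count 10, minimum total 15), TMM scaling, robust quasi-likelihood F test of Hhex KO against Cre control with no covariate, and Benjamini-Hochberg adjustment over all 12161 genes (threshold 0.05). The SE is the absolute log2 fold change over the root of F. CPM are counts scaled to the TMM-adjusted library size, and RPKM divides them by the longest coding transcript in kilobases. Sequence sharing was counted over all 75-base stretches of a gene's transcripts. The fitting code was also run on simulated counts with known changes. These counts were drawn without the pairs seen among the Hhex KO libraries, so the run says nothing of how the pairs affect the calls. Alternatives were other size factors, filters and tools (DESeq2 1.42.0, limma 3.58.1), a replicate block, leaving out each library, and, added after seeing the data, leaving out a pair of Hhex KO libraries.

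Named members are those called, Nnt, Cycs and Cyc1, and in each complex the 3 smallest p-values and the highest RPKM; from the other lists, calls only. Genes named beside these (among them Atp5b, Atp5l, Cox6a1, Ndufs1, Fgf10, Ppargc1a and Nrf1) were chosen after their values were seen. The members and gene lists were chosen with earlier results of these data known. Individual values of 2 genes are not reported here. With 4 against 3 libraries an exact permutation test of 1 gene cannot go below p = 0.0286.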

Additional observations from a re-analysis of the deposited data

Results flagged for a closer look

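The level of Atp5e in Hhex KO library 1, 138 CPM, stood apart from the other 3 Hhex KO libraries: its gap to the next library made up 0.846 of the range of the group, 138 to 241 CPM, above the critical value of 0.829 for 4 libraries. It was the only such value among the 29 groups examined (22 named members and 7 summed levels in Hhex KO), and chance alone gives about 1 in 20.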

How the results depend on the processing

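Of 153 recomputed counts and medians, 145 stayed within a set bound. For medians the bound was 1 SD of the per-library medians, pooled over the groups, and for counts a factor of 1.5. The bound for medians is wide. The median of all members, 0.10 as reported, stayed within it both at 0.25 and at -0.08, so the 145 include changes of sign. Of 369 recomputed fold changes of named members, 334 kept direction and side of the threshold. Nnt was called under every alternative run. The count of members higher was 1 with the stricter filter (at least 10 CPM in 3 libraries), which removed Cox6a2, and 8 with limma-voom and sample quality weights, where 2 were lower (against 12.6% and 10.9% of all genes). Those 8 were Nnt, Cox6a2, Ndufa6, Cyc1, Uqcrh, Cox7a2l, Atp5g2 and Atp5g3. With the same weights Cycs turned to 0.065 and Sdhb to 0.042, neither called; the cause was not tested. Leaving out 1 library gave 1 to 2 members higher (against 0.723% to 4.35% of all genes) and 0 lower (against 0.397% to 2.40%), a median of all members from 0.03 to 0.19, and estimates that changed sign for Sdha (-0.044 to 0.16), Ndufa3 (-0.064 to 0.13) and Ndufaf8 (-0.024 to 0.17). The medians by complex ranged from 0.00 to 0.17 for complex I, from -0.06 to 0.14 for II, from 0.01 to 0.23 for III, from 0.01 to 0.23 for IV and from 0.06 to 0.23 for V. The median of all members was 0.23 with quality weights (complex I 0.21), 0.25 without Hhex KO libraries 1 and 4 (complex I 0.22) and -0.08 without 2 and 3 (complex I -0.08), against 0.10 (complex I 0.07) as reported. Leaving out a pair of Hhex KO libraries was added after seeing the data. Without libraries 1 and 4, 24 members were higher and 2 lower, and Cycs turned to 0.086 and Sdhb to 0.075. Without libraries 2 and 3 the median of complex II was -0.28, and Cox4i1 turned to -0.072, Ndufa3 to -0.17, Ndufaf8 to -0.10, Sdha to -0.24, Sdhd to -0.070 and Uqcrfs1 to -0.081, none of them called. With replicate number as a block in the 6 libraries numbered 1 to 3, edgeR called 2 members higher and 0 lower, against 4.11% and 2.27% of all genes. These were Nnt (1.40, edgeR adjusted p = 0.00595) and Cox6a2 (1.81, edgeR adjusted p = 0.0110). Deviations from the group means correlated at r = 0.33, 0.48 and -0.03 between libraries of the same number. Between different numbers r ran from -0.49 to 0.24. With 3 libraries per group these values cannot decide whether the numbers mark pairs. The call of Coq3 was lost with no filter (adjusted p = 0.0588), with the block (0.0650) and without Hhex KO libraries 2 and 3 (0.0543). At 26 reads in one control library, depth limits Cox6a2 more than Nnt.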
